A study of Mus musculus with 4 samples.

Results

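Of the 56748 gene IDs in the count files, 37 genes of the lysosome and of autophagy were examined. They were chosen by name as a list built around *Lamp2*, and earlier results of these data were known at the choice. No cut on their values was used, and they were matched to the files by Ensembl ID and mouse GENCODE symbol. The list holds 7 lysosomal membrane proteins, 7 lysosomal proteases, 6 glycosidases, 6 lipid hydrolases and soluble cofactors, 4 genes of autophagy and its regulation, and 7 subunits or accessory proteins of the V-ATPase. All 37 had reads in at least 1 library, and 33 passed the filter on low counts and were tested among 8670 genes. The other 4, *Npc1*, *Lamp1*, *Ctsa* and *Man2b1*, had too few reads for a test and are given by their counts.

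The reads came from C2C12 cells, an established mouse myoblast line with the genotype given as WT, kept in growth medium. One group of 2 libraries carried a scrambled shRNA and the other group of 2 a cocktail of 3 shRNAs against *Hnrnpl*, which encodes an RNA-binding protein that regulates splicing. Scrambled and knockdown cells alike carried a plasmid with an eGFP reporter, grew from clones picked for it and went through puromycin selection. Each group rests on 1 stable line sampled at 2 passages, so the p-values measure the spread between passages and not between independently made lines. Batch 1 and batch 2 of the labels each held 1 scrambled and 1 knockdown library. In bulk libraries such as these, fewer cells of a type and less RNA per cell cannot be told apart.

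Direct RNA sequencing reads each molecule from its poly(A) end, and each library had 1229424 to 1676911 reads on genes. Where a gene has 0 reads in a library, a limit of 3 reads allows 1.79 to 2.44 CPM (reads scaled by the counted total of the library), and this covers counting error only. The targeted gene *Hnrnpl* had 358 reads in scrambled 1, 656 in scrambled 2, 242 in knockdown 1 and 258 in knockdown 2, and both knockdown libraries lay below both scrambled ones. It fell by 0.78 ± 0.18 (log2 fold change and its standard error), with an adjusted p of 0.0112 in edgeR's quasi-likelihood test. The call was lost without scrambled 2 (log2 fold change -0.48, adjusted p = 0.194 from edgeR) and without knockdown 1 (-0.62 and 0.1502). Of 8 myoblast markers, *Vim*, *Des*, *Myf5*, *Cdh15* and *Ncam1* had at least 14 reads in every library, *Itga7* had 2 to 6, *Myod1* had 1 read in all and *Pax7* had 0. *Cdh15*, *Ncam1* and *Des* fell in knockdown, with log2 fold changes of -2.55, -1.47 and -0.56 (adjusted p of 2.03e-06, 0.00231 and 0.0308 from edgeR), and the part of this in the results of the members was not tested. Of 12 macrophage markers, named because macrophages are rich in lysosomes, 11 had 0 to 3 reads per library, and *Cd14* had 27 to 44, while the defining markers *Ptprc*, *Adgre1* and *Itgam* were at 0 in every library. The summed macrophage markers were 21.6 and 24.4 CPM in scrambled and 26.2 and 41.5 CPM in knockdown.

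Lysosomes are acidic organelles that break down proteins, sugars and lipids delivered by endocytosis and autophagy. The V-ATPase pumps protons into them, soluble hydrolases do the digestion, and heavily glycosylated membrane proteins such as those encoded by *Lamp1* and *Lamp2* line the membrane. In autophagy, cargo is wrapped by membranes that carry proteins of the LC3 and GABARAP family and that fuse with lysosomes, and TFEB is a transcription factor that drives many of these genes. In muscle, loss of LAMP2 causes Danon disease and loss of acid alpha-glucosidase causes Pompe disease, in both of which autophagic or glycogen-filled vacuoles build up in muscle fibres.

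*Lamp2* (ENSMUSG00000016534.16) lies on the reverse strand of chromosome X from 37488520 to 37545340 in GRCm39. Its transcripts share their upstream exons and end in alternative last exons that encode different transmembrane and cytosolic ends. The form LAMP2A is the lysosomal receptor of chaperone-mediated autophagy. The deposited counts are per gene and add these forms together, so the coding parts of a pair of these ends are shown as an example of what the count does not separate. The third end, of LAMP2C (transcript Lamp2-206, coding part at chrX:37491019-37491158), belongs to the same gene and is not shown, since its coding part differs in length (140 bases), and whether any read came from it cannot be told from the counts. The 2 sequences come from GRCm39 with the GENCODE vM39 annotation, and capitals mark the 73 of 137 positions (53.3%) at which they are identical without gaps. They encode the end of LAMP2A at chrX:37494312-37494448 (transcript Lamp2-201) and the end of LAMP2B at chrX:37510592-37510728 (transcript Lamp2-202), both on the reverse strand.
Lamp2-201: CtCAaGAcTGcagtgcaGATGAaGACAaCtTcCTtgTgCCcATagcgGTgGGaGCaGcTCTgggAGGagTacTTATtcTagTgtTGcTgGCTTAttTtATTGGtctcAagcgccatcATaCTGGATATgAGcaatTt
Lamp2-202: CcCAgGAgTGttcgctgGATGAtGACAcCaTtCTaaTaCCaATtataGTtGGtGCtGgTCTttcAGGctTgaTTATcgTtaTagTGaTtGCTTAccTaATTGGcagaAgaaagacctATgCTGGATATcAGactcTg

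TFEB and its relatives bind the letters CACGTG, best within TCACGTGA, in the promoters of many lysosomal genes, so the promoters of the members were searched for both. The windows ran from 250 bases before to 50 bases after each RefSeq start site (assembly GRCm38.p6), and both motifs read the same on either strand. Of the 37 members, 32 had a promoter entry, and *Ctsb*, *Npc1*, *Asah1*, *Atp6v1b2* and *Atp6v1g1* did not. CACGTG was found in 10 of the 32 (31.2%), against 8.09% of the 27025 genes with windows of the same length. The longer motif TCACGTGA was found in 5 of the 32 (15.6%), against 1.12%, and each TCACGTGA also counts as a CACGTG. The 10 were *Atp6v0d1*, *Atp6v1a*, *Ctsa*, *Ctsd* and *Mcoln1*, which held the longer motif, and *Ctsl*, *Gaa*, *Glb1*, *Lamp1* and *Lgmn*. A match is a description of letters and not a measured binding site. The windows of 4 members tested are shown because their values differed in sign and size, with the motif in capitals. They lie 46, 99, 132 and 236 bases before the start site of *Mcoln1* (chr8:3500462-3500491, forward strand), *Ctsd* (chr7:142387908-142387937, reverse strand), *Atp6v1a* (chr16:44139373-44139402, reverse strand) and *Ctsl* (chr13:64370739-64370768, reverse strand).
Mcoln1: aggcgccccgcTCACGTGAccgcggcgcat
Ctsd: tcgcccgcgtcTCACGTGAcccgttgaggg
Atp6v1a: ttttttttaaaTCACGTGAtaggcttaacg
Ctsl: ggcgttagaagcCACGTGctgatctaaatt

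Across the 33 members tested, 1 changed at an adjusted p under 0.05 and none of the others did. It was *Gusb*, which rose. The share, 3.03%, stood beside 5.95% of all genes tested, of which 2.51% were higher and 3.44% lower in knockdown. *Gusb* also passed the thresholds of the study, an adjusted p under 0.05, more than 0.5 up or down on the log2 scale and more than 10 normalized counts on average, which 5.55% of all genes passed. These thresholds were applied here to edgeR, and with the study's own test, DESeq2 with the Wald test and the local fit, *Gusb* did not pass (adjusted p = 0.132). At an unadjusted p under 0.05 there were 5 members (15.2%), 2 higher and 3 lower, against 21.8% of all genes. In 19 members (57.6%) the groups did not overlap, 9 with knockdown above and 10 below, and this was so for 52.4% of all genes. With 33 members these counts are small, and they are not read as a difference from the background.

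The sizes of the differences were small. Of the 33 members, 16 had a positive and 17 a negative log2 fold change, with a median of -0.03 and a range from -0.59 to 0.64, against a median of 0.00 over all genes. In 30 of them (90.9%) the log2 fold change was within 0.5 of 0, against 77.5% of all genes. The 95% interval lay wholly between a halving and a doubling in 29 members (87.9%), against 68.0% of all genes. The median normalized count was 150 over the members and 52.8 over all genes, and the median standard error of the log2 fold change was 0.16 and 0.24. The part of depth in these shares was not tested.

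**Figure D1:**
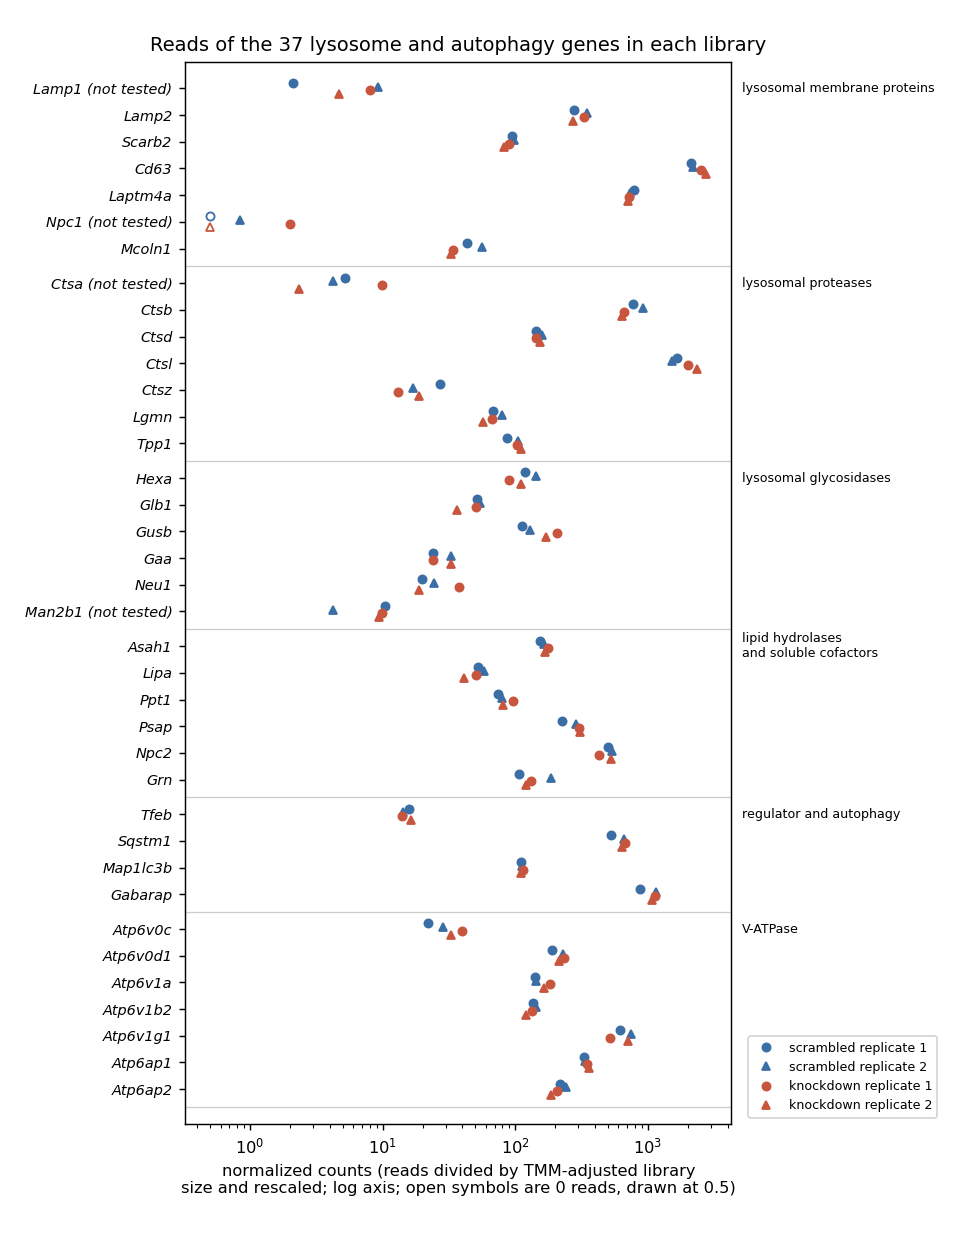
Normalized counts of all 37 members in the 4 libraries, on a log axis, grouped by role. Each symbol is 1 library, open symbols are libraries with 0 reads, and for most members the 4 symbols lie close together, with *Gusb* the one member that passed the test.

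**Figure D2:**
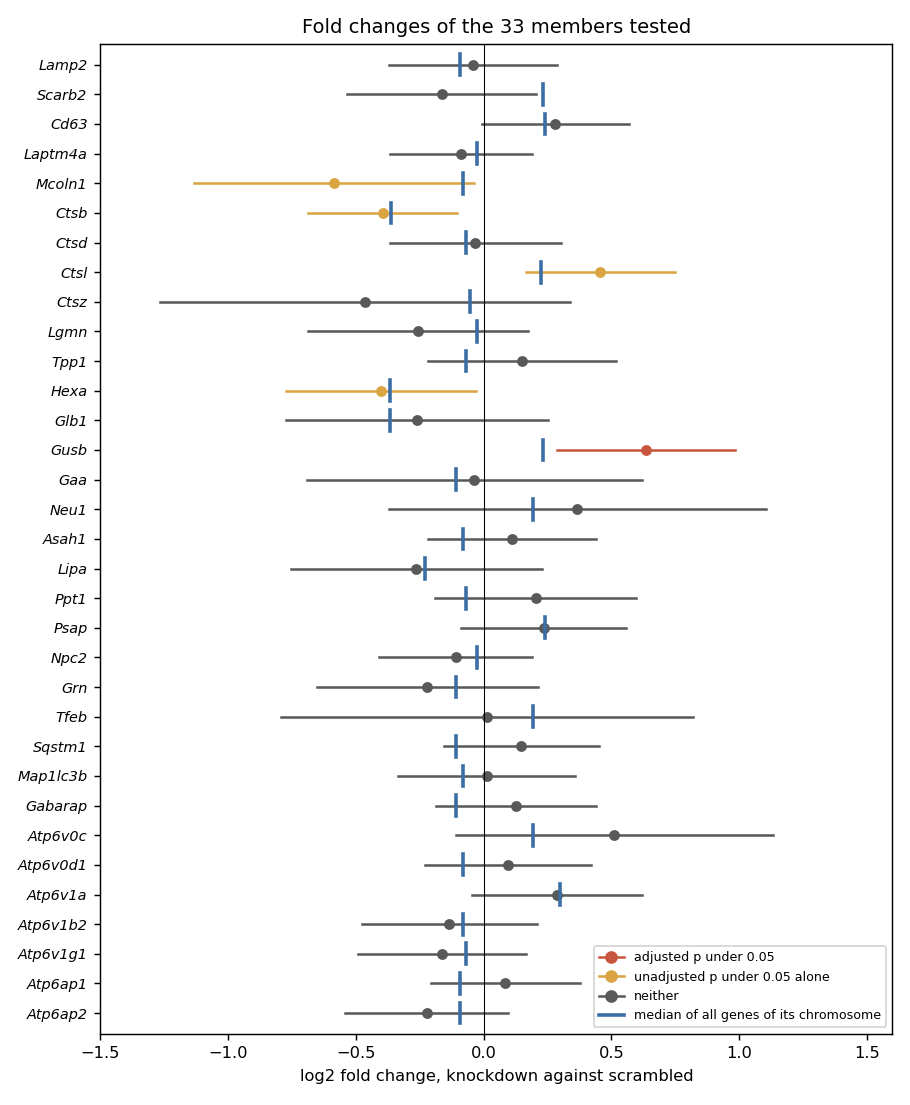
Log2 fold change of knockdown against scrambled for the 33 members tested, each with its 95% interval from edgeR as a line. Blue ticks give the median over all genes tested on the same chromosome, and the intervals of 5 members exclude 0.

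Among the membrane proteins, *Lamp2* had 265 reads in scrambled 1, 413 in scrambled 2, 334 in knockdown 1 and 235 in knockdown 2. Scaled by the TMM method of edgeR to a common library size, these were 278 and 348 normalized counts in scrambled and 333 and 275 in knockdown. The groups overlapped, with the highest and the third highest value in scrambled and the lowest in knockdown 2. The scrambled mean was 313 ± 49.5 and the knockdown mean was 304 ± 41.1 (SD, n = 2 each). The log2 fold change was -0.04 with a 95% interval from -0.37 to 0.29 (adjusted p = 0.910 from edgeR). Within batch 1 the log2 ratio of knockdown to scrambled was 0.26 and within batch 2 it was -0.34, so the batches differed in sign. For the summed *Lamp2* transcripts, a change beyond these bounds lies outside the interval, and nothing is measured here about the balance of the forms.

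*Mcoln1* encodes a calcium channel of the lysosomal membrane and held TCACGTGA in its promoter, shown above. It had 41 and 67 reads in scrambled and 34 and 28 in knockdown, or 43.0 and 56.4 against 33.9 and 32.7 normalized counts, so both knockdown libraries lay below both scrambled ones. The log2 fold change was -0.59 (standard error 0.26, 95% interval -1.13 to -0.04), and the adjusted p of 0.196 from edgeR missed the threshold. *Cd63*, a tetraspanin of late endosomes and the membrane protein with the most reads, had 2035 and 2618 reads in scrambled and 2509 and 2367 in knockdown. Its normalized counts of 2132 and 2204 in scrambled lay below 2502 and 2769 in knockdown. Its log2 fold change was 0.28 (95% interval -0.01 to 0.57, adjusted p = 0.242 from edgeR). *Scarb2*, which carries glucocerebrosidase to the lysosome, and *Laptm4a*, a lysosomal transmembrane protein, had log2 fold changes of -0.16 and -0.09. *Lamp1* had 2 and 11 reads in scrambled and 8 and 4 in knockdown, and *Npc1*, which moves cholesterol out of the lysosome, had 0 and 1 and then 2 and 0.

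These low counts need the annotation beside them. The last 500 bases of the *Lamp1* transcript are covered wholly by exons of *Grtp1* on the opposite strand, and 77.4% of those of *Npc1* by exons of other genes on the opposite strand. Reads that cover 2 genes are set aside as ambiguous if strand is not used, and 15.97% to 16.54% of all reads were set aside so. The strand setting of the counting is not given in the sources used here. The counts of *Lamp1* and *Npc1* may therefore hold only part of their reads, and their levels are not read as low. *Ctsb*, *Gusb*, *Grn* and *Sqstm1* have last 500 bases that are also wholly covered by exons on the opposite strand.

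Among the proteases, cathepsins L and B had differences of opposite sign, and neither passed the test. *Ctsl*, the cysteine protease cathepsin L, lies on chromosome 13 from 64507151 to 64518704 and had 1574 and 1814 reads in scrambled and 2024 and 2003 in knockdown. Normalized, these were 1649 and 1527 against 2018 and 2343, and the groups did not overlap. This gave a log2 fold change of 0.46 (standard error 0.14, 95% interval 0.16 to 0.75), and the adjusted p of 0.0584 from edgeR lay just above the threshold. Within batches the log2 ratios were 0.29 and 0.62. Over 13 alternatives the adjusted p lay between 0.00639 and 0.488 and passed in 4, which were upper quartile factors, no filter, the local fit of DESeq2 and the edgeR fit without knockdown 1.

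*Ctsb*, the cysteine protease cathepsin B, lies on chromosome 14 from 63358384 to 63383372 and had 741 and 1099 reads in scrambled and 660 and 545 in knockdown. In normalized counts these were 776 and 925 against 658 and 637, and both knockdown libraries lay below both scrambled ones. The log2 fold change was -0.39 (standard error 0.14, 95% interval -0.69 to -0.10, adjusted p = 0.100 from edgeR), and within batches the log2 ratios were -0.24 and -0.54. The aspartic protease *Ctsd* had a log2 fold change of -0.03, and *Tpp1*, a tripeptidyl peptidase, one of 0.15. *Lgmn*, the asparaginyl endopeptidase, had -0.26 and *Ctsz*, a carboxypeptidase, had -0.46, the latter on 13 to 26 reads per library and with overlapping groups. *Ctsa*, which protects neuraminidase and beta-galactosidase in the lysosome, had 5 and 5 reads in scrambled and 10 and 2 in knockdown.

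In the glycosidases, *Gusb* encodes beta-glucuronidase and lies on the reverse strand of chromosome 5 from 130017852 to 130031903. It had 107 reads in scrambled 1, 154 in scrambled 2, 206 in knockdown 1 and 146 in knockdown 2. Normalized counts were 112 and 130 in scrambled and 205 and 171 in knockdown, or 121 ± 12.4 and 188 ± 24.5 (SD, n = 2 each), with both knockdown libraries above both scrambled ones. *Gusb* rose by 0.64 on the log2 scale, a factor of 1.55 (standard error 0.17, 95% interval 0.29 to 0.99, adjusted p = 0.0295 from edgeR). The log2 ratio was 0.87 within batch 1 and 0.40 within batch 2. The call was lost with DESeq2 (adjusted p = 0.132 with the local and 0.410 with the parametric fit), after removal of the chromosome medians (adjusted p = 0.249 from edgeR), without scrambled 1 (0.157) and without knockdown 1 (0.221). *Vkorc1l1*, whose exons cover the last 500 bases of *Gusb* on the opposite strand, had 39 and 63 reads in scrambled and 65 and 51 in knockdown. Its log2 fold change was 0.40, at an adjusted p of 0.332 from edgeR, and the part of these reads in the *Gusb* count was not tested.

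*Hexa*, the alpha subunit of beta-hexosaminidase, lies on chromosome 9 from 59446818 to 59474021 and had 113 and 170 reads in scrambled and 90 and 94 in knockdown. The normalized counts of 118 and 143 in scrambled lay above 89.7 and 110 in knockdown. On the log2 scale the change was -0.40 (standard error 0.18, 95% interval -0.77 to -0.03, adjusted p = 0.193 from edgeR), and within batches it was -0.40 and -0.38. *Glb1*, beta-galactosidase, had a log2 fold change of -0.26 and *Gaa*, the acid alpha-glucosidase that digests glycogen, one of -0.04 (95% interval -0.69 to 0.62) with overlapping groups. *Neu1*, the lysosomal sialidase, had 0.37 on 16 to 38 reads per library, with log2 ratios of 0.93 and -0.38 within batches 1 and 2. *Man2b1*, an alpha-mannosidase, had 10 and 5 reads in scrambled and 10 and 8 in knockdown.

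None of the 6 lipid hydrolases and soluble cofactors had an unadjusted p under 0.05, and their log2 fold changes ran from -0.26 to 0.24. *Npc2*, which hands cholesterol to NPC1 and had the most reads of the group, had 478 and 634 reads in scrambled and 433 and 452 in knockdown. Its normalized counts of 501 and 534 against 432 and 529 overlapped, with a log2 fold change of -0.11 (95% interval -0.41 to 0.19). *Psap*, the precursor of the saposins that help lipid hydrolases reach their substrates, had 0.24 and acid lipase *Lipa* had -0.26. The thioesterase *Ppt1* had 0.20, the acid ceramidase *Asah1* 0.11 and progranulin *Grn* -0.22. Progranulin had its highest normalized count in scrambled 2, 185, and its lowest in scrambled 1, 107, so both knockdown libraries lay between them.

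The regulator and autophagy genes differed little between the groups. *Gabarap*, which encodes a ubiquitin-like protein that is coupled to autophagic membranes, had 830 and 1379 reads in scrambled and 1139 and 926 in knockdown. In normalized counts these were 870 and 1161 against 1136 and 1083, and the scrambled libraries lay on either side of the knockdown ones. The log2 fold change was 0.13 (95% interval -0.19 to 0.44, adjusted p = 0.673 from edgeR). *Sqstm1*, a receptor that links ubiquitinated cargo to the autophagic membrane, had 0.15, *Map1lc3b*, which encodes LC3B, had 0.01, and *Tfeb* had 0.01 on 14 to 17 reads per library. In all 4 genes the groups overlapped and the batches differed in sign. For *Tfeb* the 95% interval ran from -0.79 to 0.82, so changes of either sign within these bounds are compatible with its counts.

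Of the V-ATPase genes, *Atp6v1g1*, a subunit of the stalk, had the most reads, with 592 and 891 in scrambled and 523 and 604 in knockdown. Normalized counts of 620 and 750 against 521 and 706 overlapped, and the log2 fold change was -0.16 (95% interval -0.49 to 0.17). The catalytic subunit *Atp6v1a* had 0.29, with 141 and 144 normalized counts in scrambled below 184 and 164 in knockdown (adjusted p = 0.303 from edgeR). *Atp6v1b2*, the other subunit of the catalytic ring, had -0.13 and *Atp6v0d1*, which joins the rotor to the membrane ring, had 0.10. The accessory proteins *Atp6ap1* and *Atp6ap2* had 0.08 and -0.22. *Atp6v0c*, the subunit of the proton-carrying ring, had 0.51 on 21 to 40 reads per library, but the end of its transcript could not be placed at 1 site in the genome, so its count is uncertain. No V-ATPase member had an unadjusted p under 0.05.

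Summed over all members, the reads were 7374 CPM in scrambled 1, 8355 in scrambled 2, 8691 in knockdown 1 and 8667 in knockdown 2, a ratio of the group means of 1.10. Knockdown lay above scrambled in the sums of the membrane proteins (2293 and 2446 against 2688 and 2696 CPM) and of the proteases (1897 and 1995 against 2198 and 2311 CPM), and the groups overlapped in the other 4 roles. *Cd63* and *Ctsl* carry these sums, and with chromosome medians removed, their log2 fold changes were 0.04 and 0.23 in place of 0.28 and 0.46. Without both, a choice made after their values were seen, the sum over the other 35 members was 4773 and 5712 CPM in scrambled and 5393 and 5113 CPM in knockdown, a ratio of 1.00. Scrambled 1 held the lowest normalized count of the 4 libraries in 13 of the 33 members and scrambled 2 the highest in 16, and knockdown 2 held the lowest in 12. Over all genes tested these shares were 25.2%, 24.5% and 25.5%.

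**Figure D3:**
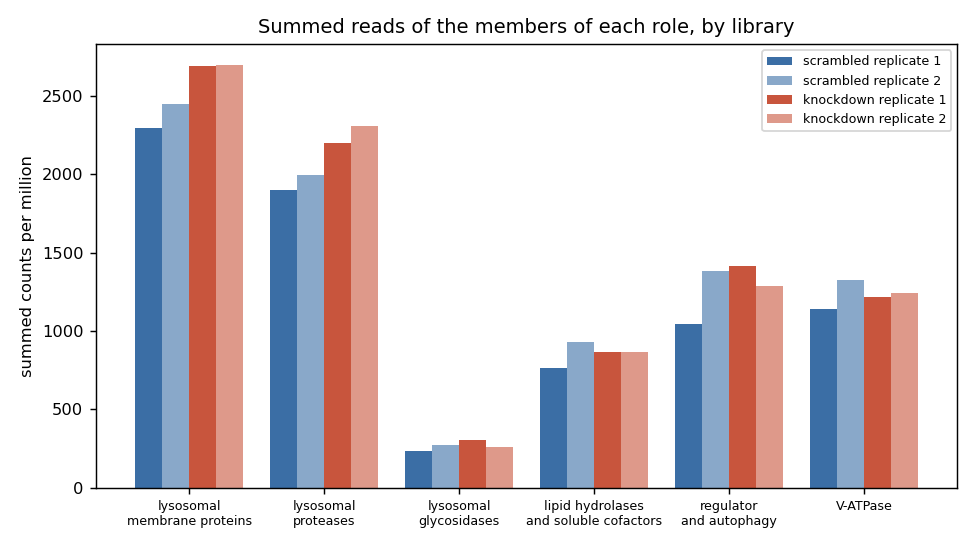
Summed CPM of the members of each role in the 4 libraries, as bars from 0. Bars are compared within a role only, since reads were not scaled by transcript length, and knockdown stands above scrambled in the membrane proteins and the proteases.

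The genes of some chromosomes were shifted together between these groups. The median over all genes tested was a log2 fold change of -0.37 on chromosome 9 and -0.36 on chromosome 14, and 0.23 on chromosomes 5 and 13, 0.24 on chromosome 10 and 0.30 on chromosome 16. Several members lay near the median of their chromosome. *Hexa* on chromosome 9 had -0.40 beside its chromosome's -0.37, *Ctsb* on chromosome 14 had -0.39 beside -0.36, *Lipa* on chromosome 19 had -0.26 beside -0.23, *Psap* on chromosome 10 had 0.24 beside 0.24, and *Atp6v1a* on chromosome 16 had 0.29 beside 0.30. Of 13 members on chromosomes whose median was more than 0.15 from 0, 12 had the sign of the median, the exception being *Scarb2* on chromosome 5. The same share over all genes was not counted, and most genes of a chromosome share the sign of its median by definition. On chromosomes 4, 7, 8 and 11, with medians from -0.11 to -0.07, the median over the members was positive. Pearson's r between the log2 fold change and the chromosome median was 0.68 over the 33 members, which share libraries and chromosomes. Spearman's rho was 0.56, and over all 8670 genes r was 0.37. The members had more reads (median normalized count 150 against 52.8), and the part of depth in these values was not tested. *Gusb* and *Ctsl* stood above their chromosomes' 0.23 and *Mcoln1* below its chromosome's -0.08. With the chromosome medians removed, 0 members had an adjusted p under 0.05 in edgeR and 2 had an unadjusted p under 0.05. The share of all genes called in that fit was not counted, so these counts are not read against a background. In that fit *Ctsb* and *Hexa* were at -0.03 and -0.04, *Ctsl* at 0.23, *Gusb* at 0.40 and *Mcoln1* at -0.51. What shifts whole chromosomes was not tested.

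**Figure D4:**
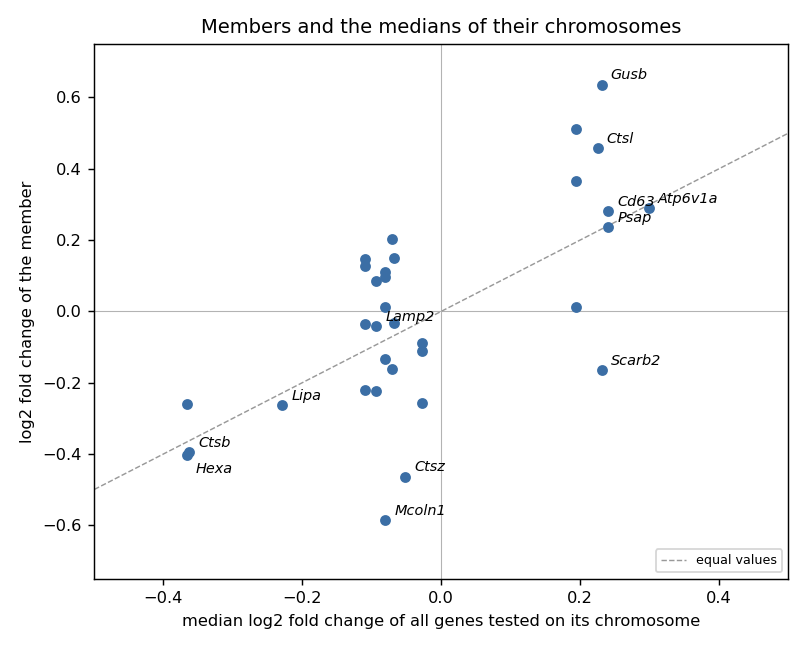
Log2 fold change of each of the 33 members against the median over all genes tested on its chromosome, with a dashed line of equal values. *Hexa*, *Ctsb*, *Lipa*, *Psap* and *Atp6v1a* lie on or near the line, and *Gusb*, *Ctsl* and *Mcoln1* lie away from it.

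Lists of 150 further genes of the same pathways were read beside the members, and 111 of them were tested. At an adjusted p under 0.05 edgeR called 2 (1.80%, beside 5.95% of all genes), both higher in knockdown, and 15 (13.5%, beside 21.8%) had an unadjusted p under 0.05. The median log2 fold change was 0.06. *Atp6v1f*, a V-ATPase subunit of the rotor, had 149 and 235 reads in scrambled and 298 and 235 in knockdown, or 156 and 198 against 297 and 275 normalized counts, with knockdown above scrambled. It rose by 0.69 ± 0.16 (log2 fold change and its standard error), with an adjusted p of 0.0130 from edgeR, and its chromosome had a median of 0.28. *Idua*, the alpha-L-iduronidase that digests heparan and dermatan sulphate, had 10 and 11 reads in scrambled and 36 and 19 in knockdown and rose by 1.57 (standard error 0.39, adjusted p = 0.0209 from edgeR). Like *Gusb*, it lies on chromosome 5. With the chromosome medians removed, *Atp6v1f* had a log2 fold change of 0.41 (adjusted p = 0.203 from edgeR) and *Idua* one of 1.34 (adjusted p = 0.0657 from edgeR), and neither passed. Without scrambled 1 the adjusted p of *Atp6v1f* was 0.136 and without knockdown 1 it was 0.106, while that of *Idua* was 0.0747 without scrambled 2 and 0.257 without knockdown 1. The local fit of DESeq2 called *Atp6v1f* alone of these genes and the parametric fit called 0.

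**Figure D5:**
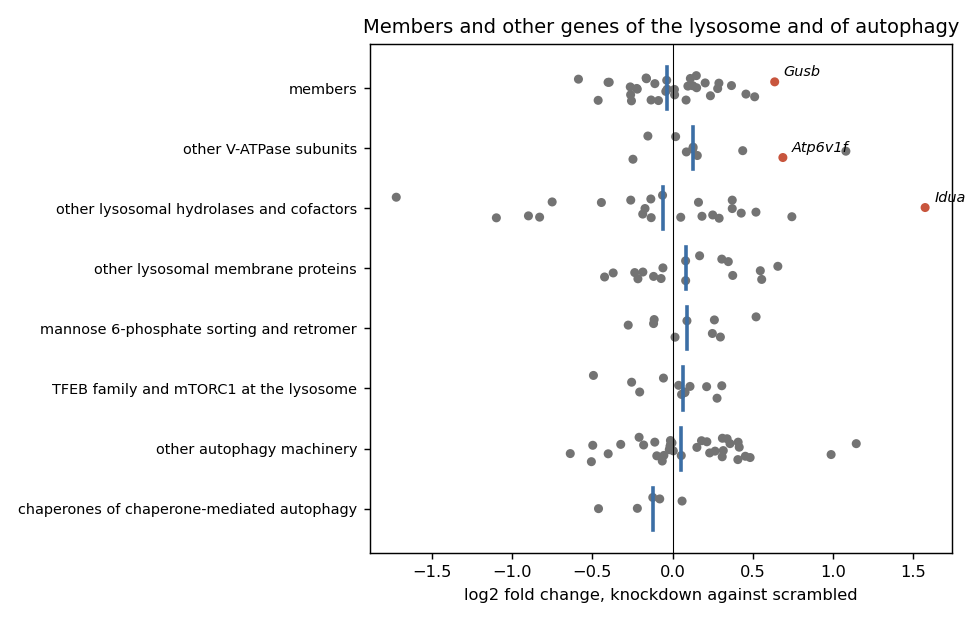
Log2 fold changes of the 33 members and of the 111 further genes tested, by list. Each point is 1 gene, red points have an adjusted p under 0.05 from edgeR, the vertical position within a list is arbitrary, and blue lines mark medians, which lie between -0.12 and 0.13.

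By list, 10 of 17 other V-ATPase subunits were tested, with 1 called higher, 0 lower and a median of 0.13. After *Atp6v1f*, *Atp6v0a2* had the smallest p, with a log2 fold change of 1.08 on 12 to 28 reads per library (adjusted p = 0.0873 from edgeR). The edgeR fit with at least 10 counts in every library also called *Atp6v0a2*. Of 35 other hydrolases and cofactors 23 were tested, with 1 called higher and 0 lower and a median of -0.06.

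No gene of the other 5 lists passed in the edgeR fit with group as the only term and all 4 libraries, or in either DESeq2 fit. Among the edgeR alternatives, the replicate block called *Optn*, the fit with no filter called *Optn* and *Mitf*, and the fit without scrambled 2 called *Optn*, *Mitf* and *Atg7*. In the latter fit the scrambled group is 1 library, in which *Mitf* had 0, *Atg7* 5 and *Optn* 10 reads, and it is assumed to vary like the knockdown pair. Of 23 other membrane proteins 17 were tested, with a median of 0.08 and 1 at an unadjusted p under 0.05. It was *Tmem106b*, a membrane protein of late endosomes and lysosomes, which had 80 and 110 reads in scrambled and 135 and 107 in knockdown and a log2 fold change of 0.56 (adjusted p = 0.0576 from edgeR). *Sidt2*, the next in that list, had -0.37 beside its chromosome's -0.37. In mannose 6-phosphate sorting and retromer, 9 of 12 genes were tested, with a median of 0.09, and the retromer subunits *Vps29* and *Vps26a* had 0.26 and 0.25 beside chromosome medians of 0.23 and 0.24, with 0 genes at an unadjusted p under 0.05. For the TFEB family and mTORC1 at the lysosome, 12 of 16 were tested, with a median of 0.07, and *Mtor*, the kinase of mTORC1, had -0.49 and *Lamtor5*, a part of its lysosomal anchor, 0.21. None of these 12 had an unadjusted p under 0.05.

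In the list of other autophagy machinery, 35 of 42 genes were tested, with a median of 0.05, and 4 were higher and 1 lower at an unadjusted p under 0.05. *Optn*, a cargo receptor, had 10 and 27 reads in scrambled and 26 and 44 in knockdown and a log2 fold change of 1.14 (adjusted p = 0.0875 from edgeR). Its adjusted p from edgeR was 0.0272 with the replicate block and 0.0145 with no filter. Leaving out libraries moved its log2 fold change to 1.84 without scrambled 2 (adjusted p = 0.00520 from edgeR), 1.58 without knockdown 1 (0.0526), 0.74 without scrambled 1 (0.287) and 0.59 without knockdown 2 (0.524). With DESeq2 the adjusted p was 0.291 in the local and 0.640 in the parametric fit. *Rab7*, the GTPase that brings late endosomes and lysosomes together, had 316 and 386 against 462 and 349 reads and a log2 fold change of 0.41 (adjusted p = 0.0942 from edgeR) beside its chromosome's 0.28. All 5 chaperones of chaperone-mediated autophagy were tested and none had an unadjusted p under 0.05, with a median of -0.12. *Stip1*, the organizing co-chaperone, had -0.22 beside its chromosome's -0.23. *Hspa8*, the chaperone that brings cargo to LAMP2A, had -0.46 on 13 to 29 reads per library, and the groups overlapped. Overlap with other genes and mapping to more than 1 site were checked for the members only. The count of *Hspa8* may therefore hold only part of its reads, and its level is not read as low.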

How the data were processed

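Direct RNA reads of 2 scrambled and 2 *Hnrnpl* knockdown C2C12 libraries were used. The authors used guppy for basecalling, minimap2 2.17 for mapping to GRCm39 and HTSeq 0.9.1 for counting, and the deposited files hold whole counts per gene. The annotation release and strand setting of the HTSeq counting are not given in the sources used here. Of 56748 IDs, 56017 were found in GENCODE vM39. Between 56.5% and 57.8% of all reads were counted on a gene, and the rest stayed out of library sizes.

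Counts were tested in edgeR 4.0.16 (R 4.3.3) with TMM factors, filterByExpr, the quasi-likelihood test with group as the only term, and Benjamini-Hochberg adjustment over all 8670 genes tested. Normalized counts were scaled to a common TMM-adjusted library size. The scripts were tested on simulated data. Members and gene lists were chosen with earlier results of these data known. Given with the values of every library were *Lamp2*, members with an unadjusted p under 0.05 and the member with the most reads in each role, and *Atp6v1a* and the members not tested were added outside this rule. Of the pathway lists, genes with an adjusted p under 0.05 and up to 2 per list with the smallest p were named, except 1 gene that is not reported here. *Ctsz*, *Neu1*, *Grn* and the other members were named to account for the whole list, and *Scarb2* and *Vkorc1l1* beside a result.

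The labels give a batch to each replicate number, so the numbers pair the libraries. Over 7705 genes, scrambled 1 and knockdown 1 deviated from the means of their groups with a correlation of -0.01, and a replicate block was added as an alternative. Further fits used upper quartile or RLE factors, no filter, a minimum of 10 counts in every library, DESeq2 1.42.0 (Wald test, local and parametric fits), mitochondrially encoded genes and *Rn18s* left out, chromosome medians removed, and each library left out. Transcripts were mapped back with minimap2 2.31 to find members whose ends fit more than 1 site. Splicing was not analysed here.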

Additional observations from a re-analysis of the deposited data

How the results depend on the processing

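The depth limits *Tfeb*, *Ctsz*, *Neu1*, *Gaa* and *Atp6v0c* and the 4 members not tested, and 2 libraries per group from 1 line each limit all results. For the alternatives below, the share of all genes called was not counted, so a moved count is not read as particular to these genes. Of the members, 1 passed an adjusted p under 0.05. The count was 2 (*Ctsl* and *Gusb*) with upper quartile factors and without the filter, and 0 with the parametric DESeq2 fit and with chromosome medians removed. With the local DESeq2 fit it was 1, *Ctsl* in place of *Gusb*, and with the replicate block it was 1, *Gusb*. Leaving out libraries gave 0 to 1, with 0 without scrambled 1. Among the other pathway genes the count of 2 became 7 without the filter, 4 with at least 10 counts in every library, 4 with the replicate block, *Atp6v1f* and *Idua* among them, 1 with the local and 0 with the parametric DESeq2 fit, 1 with chromosome medians removed, and 0 to 5 with libraries left out, 0 without knockdown 1 and 5 without scrambled 2.

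*Hnrnpl* kept its direction in all alternatives, with an adjusted p of 0.0567 and a log2 fold change of -0.78 in the parametric DESeq2 fit, and log2 fold changes from -1.03 to -0.48 with libraries left out, where the adjusted p was 0.194 without scrambled 2 and 0.1502 without knockdown 1. *Lamp2* passed in no alternative and had a log2 fold change of 0.051 with chromosome medians removed and from -0.19 to 0.12 over libraries left out. Leaving out libraries gave log2 fold changes of -0.40 to 0.042 for *Atp6v1g1*, -0.067 to 0.34 for *Gabarap* and -0.26 to 0.031 for *Npc2*. For *Mcoln1* they ran from -0.76 without scrambled 1 to -0.37 without scrambled 2. For *Hexa* they ran from -0.55 without knockdown 2 to -0.26 without knockdown 1. The ratio of summed member reads, 1.10 with all libraries, lay between 1.04 and 1.18 with libraries left out, the latter without scrambled 2. The members' median log2 fold change lay between -0.04 and 0.09. The cause of these moves was not tested, except that fits without a library hold fewer samples and assume that the lone library varies like the other group.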

Other observations

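The ratio of *Ctsl* to *Ctsb* reads within a library does not depend on the scaling between libraries. It was 2.12 in scrambled 1, 1.65 in scrambled 2, 3.07 in knockdown 1 and 3.68 in knockdown 2, so the knockdown libraries lay above the scrambled ones. The ratio of *Gusb* to *Hexa* was 0.947 and 0.906 in scrambled and 2.29 and 1.55 in knockdown. Both pairs were chosen after their values were seen, both combine genes of chromosomes shifted in opposite directions, and no test was made.

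Of the 10 members with CACGTG in the promoter window, 8 were tested, 3 with a positive and 5 with a negative log2 fold change and a median of -0.03. Of the members with a promoter entry and no such motif, 21 were tested, 12 positive and 9 negative, with a median of 0.01. The only member that passed the test, *Gusb*, was among the latter.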
